A study of Rattus norvegicus with 2 samples.

Results

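The nuclei described here are cortical interneurons of the parvalbumin (Pvalb) kind in which no Mybpc1 transcript was counted. They were chosen by measured UMIs (unique molecular identifiers, each standing for 1 captured RNA molecule). A nucleus entered with at least 500 genes, at least 2 UMIs of Gad1 and Gad2 together, none of Slc17a7, Mybpc1 or Sst, and at most 1 of Adarb2. It also needed at least 1 UMI of at least 3 of the 6 genes Btbd11, Adamts15, Kcns3, Plch1, Pvalb and Egflam. This gate held 333 of 12512 nucleus barcodes, 182 of 5543 in the METH library and 151 of 6969 in the saline library. Of the 2091 GABAergic nuclei (the same limits on genes, Gad1 and Gad2, and Slc17a7), 1758 lay outside the gate, 1004 METH and 754 saline. Those that passed every limit but carried Mybpc1 numbered 63 and 28, and they are called Mybpc1-positive counterparts below.

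The study profiled orbitofrontal cortex in a rat model of methamphetamine (METH) sensitization with single-nucleus RNA sequencing. The METH group was made of male Sprague-Dawley rats, 8 weeks old, that were given METH intraperitoneally at 1 mg/kg for 7 days. The saline group was of the same strain, sex and age and was given saline by the same route for 7 days. Animals of both groups were under deep pentobarbital anaesthesia (60 mg/kg) when killed. Tissue of 4 animals per group was taken for nuclei, and 1 library per group exists, so the animals cannot be separated and group, library and dissection cannot be told apart. No test between the groups was possible, no p-value is given, and each interval below is a 95% interval for counting error only.

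Pvalb interneurons are the fast-spiking inhibitory cells of the cortex. They form synapses around the cell bodies and axon starts of pyramidal cells, fire at high rates with the help of Kv3 potassium channels, and are often wrapped in perineuronal nets, a dense extracellular matrix. In rodents they come from the medial ganglionic eminence, as Sst interneurons do, whereas Vip, Lamp5 and related interneurons come from the caudal ganglionic eminence. Parvalbumin itself is a calcium-buffering protein, and orbitofrontal cortex is a prefrontal area involved in value and choice.

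Depth differed between the libraries. Gated nuclei had a median of 7285 UMIs in METH (interquartile range 5434.5 to 9182.25) and 5312 in saline (4031.5 to 7350), with 1397438 and 904480 UMIs summed. Thinned to 3000 UMIs each, they showed medians of 1817 and 1823 genes. Mitochondrial genes took a median of 0.153% of the UMIs in METH nuclei and 0.229% in saline nuclei. The doublet caller Scrublet marked 6 METH and 5 saline gated nuclei (3.30% and 3.31%), which were kept in the values below and left out in an alternative. The libraries shared 9 barcodes, of which 0 METH and 1 saline barcode belonged to gated nuclei.

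Levels are given as CPM, the UMIs of a gene per 1000000 UMIs summed over the nuclei of a set. Pvalb, the gene for which the class is named, had 67.3 CPM in METH gated nuclei and 91.8 CPM in saline gated nuclei, against 11.6 and 14.0 CPM in the other GABAergic nuclei. Only 61 of 182 METH and 56 of 151 saline gated nuclei held a Pvalb UMI, so most were chosen by the other 5 genes. After thinning to 3000 UMIs, Pvalb was detected in 17.8% of METH and 27.0% of saline gated nuclei, and in 0.2% and 0.4% of excitatory nuclei, which should lack it.

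The remaining gate genes were detected more often. Btbd11, which encodes a protein of inhibitory interneuron synapses in mice, had 621 CPM in METH and 628 CPM in saline gated nuclei, against 320 and 297 CPM in other GABAergic nuclei. Kcns3, a modulatory potassium channel subunit, stood at 316 and 285 CPM, against 109 and 133 CPM. Plch1, a phospholipase C, had 254 and 274 CPM, against 52.9 and 42.4 CPM. These values chose the nuclei and are a description only. Adamts15, a protease of the extracellular matrix, had 111 and 135 CPM, against 19.9 and 20.5 CPM. Egflam, which encodes the matrix protein pikachurin, had 174 and 165 CPM, against 6.9 and 14.8 CPM. Egflam was low in the Mybpc1-positive counterparts too, at 17.7 and 17.1 CPM, whereas Btbd11, Kcns3, Plch1, Adamts15 and Pvalb were each within 1 log2 unit of the gated nuclei there.

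**Figure D1:**
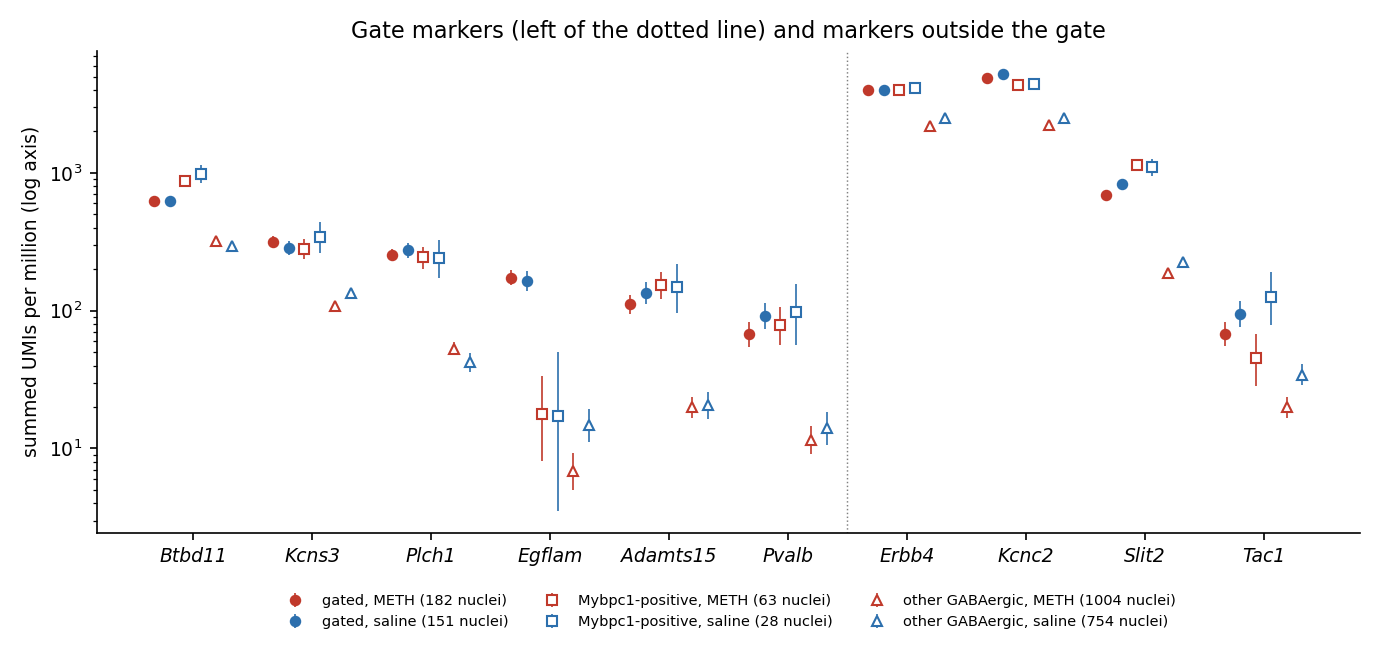
Level of 10 genes in gated nuclei, Mybpc1-positive counterparts and other GABAergic nuclei, as CPM on a log axis, METH in red and saline in blue. Lines are 95% counting intervals. The 6 genes left of the dotted line are part of the gate; Egflam is at 174 (METH) and 165 (saline) in gated nuclei and at 17.7 and 17.1 in Mybpc1-positive ones, while Erbb4, Kcnc2, Slit2 and Tac1, outside the gate, are above other GABAergic nuclei in both sets.

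Gated nuclei were not uniform in the markers they carried. In METH 70 had exactly 3 of the 6 genes, 62 had 4, 43 had 5 and 7 had all 6, and in saline the numbers were 68, 51, 28 and 4. There were 28 different marker combinations in METH and 30 in saline. The commonest in both was Btbd11 with Kcns3 and Plch1, in 27 METH (14.8%) and 19 saline nuclei (12.6%). Just outside the gate, 65 METH and 67 saline nuclei had exactly 2 of the genes. In METH, Erbb4, a neuregulin receptor of interneurons that the gate did not use, had 3899 CPM in nuclei with 3 markers and 2465 CPM in nuclei with 2. In saline it had 4277 CPM with 3 markers and 3449 CPM with 2. A further 25 METH and 20 saline nuclei failed on Sst alone, 6 and 2 on Adarb2 alone, 44 and 57 on Slc17a7 alone, and 10 and 15 on Gad1 and Gad2 alone. The nuclei that failed on Slc17a7 alone were deep, with a median depth of 14061.5 UMIs in METH and of 8358 UMIs in saline.

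Nuclei with and without a Pvalb UMI differed in other markers of the gate. In METH, Egflam had 91.3 CPM in the 61 nuclei with Pvalb and 222 CPM in the 121 without, a log2 ratio of -1.28 (-1.77 to -0.82). In saline it had 113 CPM in the 56 with Pvalb and 196 CPM in the 95 without, for a log2 ratio of -0.79 (-1.36 to -0.25). Needing 3 of 6 markers links their detection, since a nucleus without Pvalb had to carry 3 of the other 5. Kcnc1, the Kv3.1 potassium channel of fast spiking, is not in the gate. It was at 1078 CPM with Pvalb and 870 CPM without in METH, and at 1018 and 767 CPM in saline, log2 ratios of 0.31 and 0.41. Other Pvalb markers outside the gate did not follow it. Slit2 was lower in nuclei with Pvalb, at log2 ratios of -0.35 in METH and -0.29 in saline, Kcnc2 was at -0.04 and -0.11, and Erbb4 was at 0.19 in METH and -0.17 in saline. Nuclei with Pvalb were also deeper, with medians of 7880 against 6629 UMIs in METH and 5596 against 5011 UMIs in saline, and the part of depth was not tested.

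The next comparison set the gated nuclei beside other GABAergic nuclei of the same library, with equal numbers in each depth bin (182 against 182 METH nuclei and 150 against 150 saline nuclei). The gate chose nuclei by this same contrast, so the values describe the nuclei and test nothing. A gene was called where the ratio and its nearest interval bound both passed 1.5-fold in each library. Of 6195 measured genes outside the gate, 95 were higher in gated nuclei (1.53%) and 204 were lower (3.29%).

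Fast-spiking potassium channel genes stood above other GABAergic nuclei together: 8 of 8 measured members in each library, of which 2 were called, Kcnc2 and Kcna2. Kcnc2, the Kv3.2 channel, had 4895 CPM in gated and 2121 CPM in other GABAergic METH nuclei, and 5245 against 2552 CPM in saline, log2 ratios of 1.21 and 1.04. Kcna2, the Kv1.2 channel, had 105 against 50.8 CPM in METH and 134 against 63.5 CPM in saline. The list summed to 7966 against 4082 CPM in METH and 8330 against 4736 CPM in saline, and its median log2 ratios were 0.65 and 0.71, beside 0.05 and 0.03 over all measured genes.

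Pvalb markers outside the gate were above other GABAergic nuclei for 12 of 13 members in each library. Of all 6206 measured genes, 3524 were above in METH and 3339 in saline. Among the 12 markers, 6 were called. These were Erbb4, Kcnc2, the neuropeptide precursor Tac1, the release sensor Syt2, the guidance factor Slit2 and the adhesion gene Cntnap4. Syt2 encodes the fast calcium sensor that triggers transmitter release at Pvalb terminals. It had 44.4 CPM in gated and 6.4 CPM in other GABAergic METH nuclei, and 51.1 against 13.6 CPM in saline. Slit2 was at 694 against 180 CPM in METH and at 849 against 269 CPM in saline, and so separated the sets by log2 ratios of 1.95 and 1.66. PGC-1alpha, the mitochondrial co-activator Ppargc1a, is known in mice to drive Syt2 and Nefh in Pvalb interneurons. Ppargc1a itself was at 276 against 110 CPM in METH and 307 against 144 CPM in saline, and all 4 measured genes of that list were above other GABAergic nuclei.

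The transcription factor Sox6, which acts in interneurons of the medial ganglionic eminence, was called higher, with 1489 against 771 CPM in METH and 1517 against 876 CPM in saline. Among 16 measured transcription factors of interneurons, Sox6, Mef2c, Sox5, Esrrg and Ppargc1a were called higher and Npas1, Prox1, Nfib and Nfix lower. Lhx6, the factor of medial ganglionic eminence interneurons, passed no call, at 38.6 against 22.9 CPM in METH and 48.9 against 24.9 CPM in saline. Of the chandelier cell list only Trps1 was measured, at 442 against 160 CPM in METH and 477 against 158 CPM in saline.

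Markers of other interneuron classes were low. Sst markers were below other GABAergic nuclei for 9 of 9 measured members, 7 called, with sums of 895 against 4817 CPM in METH and 768 against 4542 CPM in saline. Caudal ganglionic eminence markers were called lower for all 7 measured members, with sums of 175 against 2627 CPM in METH and 183 against 2286 CPM in saline. Sst itself is in the first list and Adarb2 in the second, so the gate's limits fixed part of these counts and sums. Adarb2 alone was at 3.6 against 1219 CPM in METH and 3.4 against 939 CPM in saline. Sst was at 0 against 128 CPM in METH and 0 against 328 CPM in saline. Elfn1, a synaptic adhesion gene of Sst interneurons, was at 12.9 against 182 CPM in METH and 12.5 against 173 CPM in saline. Vip, a neuropeptide of caudal interneurons, was at 12.2 against 151 CPM in METH and 10.2 against 257 CPM in saline.

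By the smaller of the 2 libraries' ratios, the 10 genes highest in gated nuclei outside the gate were Sgpp2, Tll1, Tcf7l1, Wipf3, Syt2, Esrrg, Prrx1, Bcl2l11, Gipc2 and Lgi2. Sgpp2, a phosphatase of sphingosine-1-phosphate, had 187 against 35.8 CPM in METH and 183 against 37.4 CPM in saline, log2 ratios of 2.39 and 2.29. Tcf7l1, a transcription factor of the Wnt pathway, had 70.8 against 7.2 CPM in METH and 61.4 against 14.7 CPM in saline. The ranking took genes with the same direction in both libraries. Esrrg, an estrogen-related nuclear receptor, had 258 against 68.7 CPM in METH and 289 against 82.8 CPM in saline. The log2 ratios of the other 7 lay between 1.75 and 2.78.

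The 10 lowest were Cpne7, Unc13c, Yjefn3, Prox1, Shisa6, Sv2c, Adra1b, Frem1, Pappa2 and Npas1. Unc13c, a priming factor for synaptic vesicles, had 5.7 against 262 CPM in METH and 1.1 against 243 CPM in saline. The saline value rests on 1 UMI, and its log2 ratio of -7.74 has an interval of -13.05 to -5.24. Prox1 and Npas1 are transcription factors of caudal interneurons; Prox1 was at 2.9 against 90.1 CPM in METH and 1.1 against 74.8 CPM in saline. Shisa6, an auxiliary protein of AMPA receptors, was at 17.9 against 481 CPM in METH and 4.5 against 478 CPM in saline. Frem1 had no UMI in the saline gated nuclei and 59 in other GABAergic nuclei.

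Receptors, channels and synaptic genes split the gated nuclei from other GABAergic nuclei member by member. Of 5 measured metabotropic glutamate receptors 3 were called lower, Grm7 and Grm8 among them. Grm8, a presynaptic receptor, was at 68.0 against 510.0 CPM in METH and 54.5 against 551 CPM in saline. Grm5, not called, was at 1691 against 1333 CPM in METH and 1807 against 1283 CPM in saline. Kainate and delta receptor genes were below other GABAergic nuclei for all 7 measured members, and 4 were called, among them Grik3, Grik4 and Grid1. Grid1, a delta receptor, was at 72.3 against 153 CPM in METH and 61.4 against 156 CPM in saline. Of 14 calcium channel genes, 6 were called lower: Cacna1e, Cacna1g, Cacnb2, Cacna2d1, Cacna2d3 and the AMPA receptor auxiliary gene Cacng3. Cacna2d3 was at 128 against 1552 CPM in METH and 80.7 against 1506 CPM in saline.

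GABA receptor subunits showed the same kind of split. Gabrd, the delta subunit of extrasynaptic receptors, was called higher, at 95.9 against 42.2 CPM in METH and 94.3 against 39.7 CPM in saline. Gabra2, Gabrb1 and Gabrg1 were called lower, and the other 9 of 13 measured subunits passed no call. Gabra2 was at 23.6 against 110 CPM in METH and 19.3 against 115 CPM in saline. The serotonin receptor Htr2a was higher, at 75.9 against 27.2 CPM in METH and 85.2 against 20.4 CPM in saline. The delta opioid receptor Oprd1 was higher too, at 182 against 80.8 CPM in METH and 192 against 81.6 CPM in saline.

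Among 9 measured genes of the perineuronal net list, Bcan, Hapln4 and Crtac1 were called higher and Vcan and Sema3a lower. Hapln4, a link protein of the net, was at 106 against 25.8 CPM in METH and 100 against 37.4 CPM in saline. Bcan, the proteoglycan brevican, was at 130 against 40.1 CPM in METH and 116 against 42.0 CPM in saline. Vcan, the proteoglycan versican and also a marker of oligodendrocyte precursors, was at 4.3 against 81.5 CPM in METH and 9.1 against 91.8 CPM in saline. In the synaptic adhesion list Cntnap4, Il1rapl1, Il1rapl2 and Lgi2 were called higher and 3 genes lower, Nrxn3 and Lgi1 among them, of 19 measured. Il1rapl2, an adhesion protein of the interleukin-1 receptor family, was at 1715 against 656 CPM in METH and 2116 against 562 CPM in saline. In the vesicle release list Syt2 and Unc13b were called higher and Cplx2, Unc13c and Sv2c lower, of 27 measured.

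Nuclear-encoded genes of oxidative phosphorylation were above other GABAergic nuclei for 28 of 30 measured members in METH and 29 of 30 in saline, and 0 of them were called. Over all 6206 measured genes, 3524 were above in METH and 3339 in saline. Their sums were 2442 against 1901 CPM in METH and 2602 against 2011 CPM in saline. Median log2 ratios over the oxidative phosphorylation genes were 0.38 and 0.44. The 9 measured mitochondrially encoded genes did not go alike in the libraries, with medians of 0.51 in METH and 0.04 in saline, and their part in the list above was not tested.

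**Figure D2:**
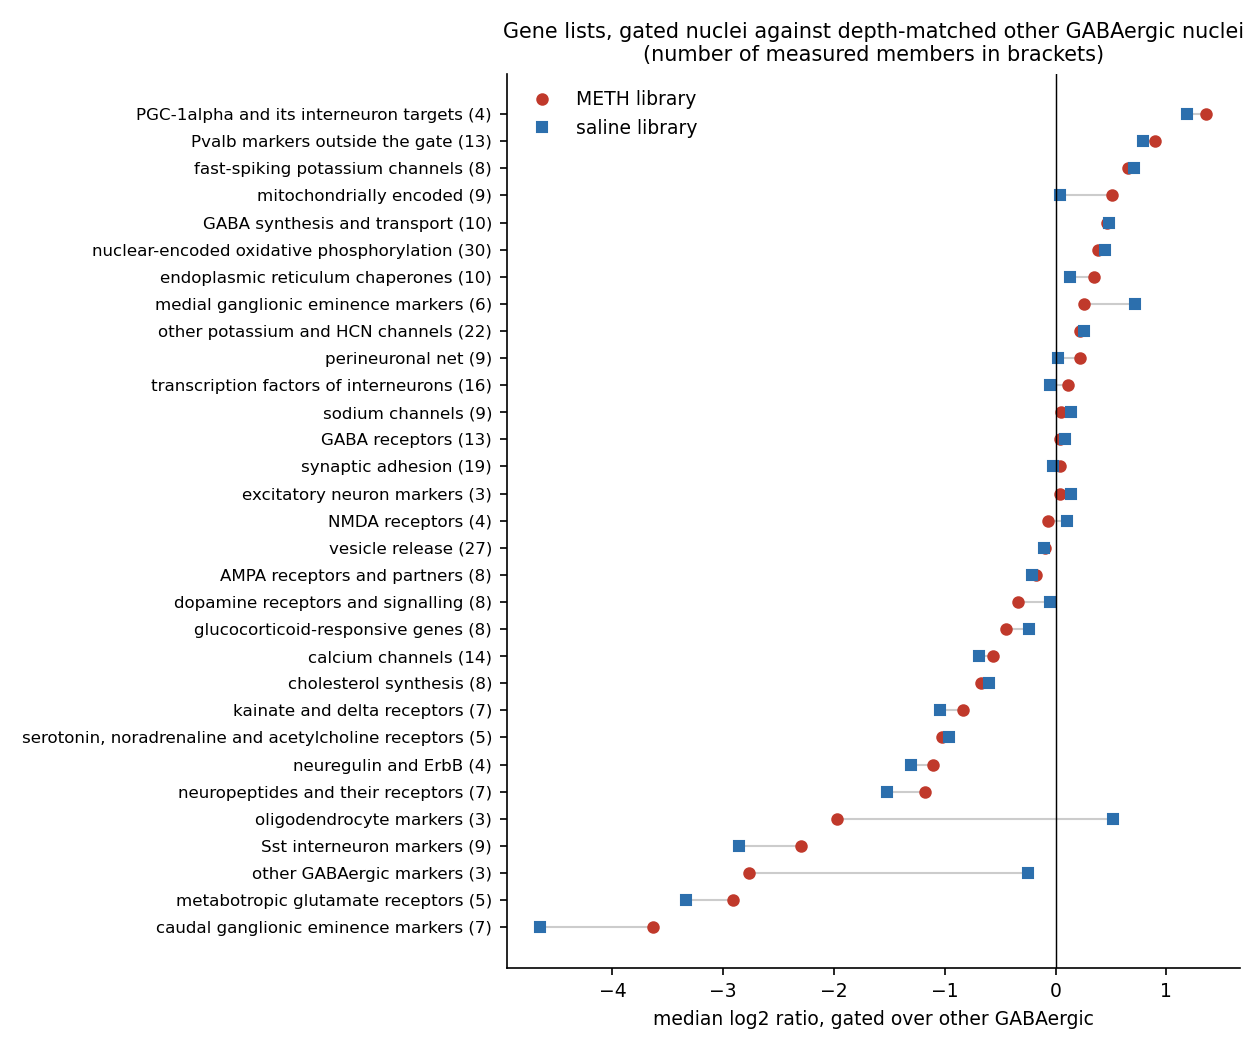
Median log2 ratio of gated over depth-matched other GABAergic nuclei for gene lists with at least 3 measured members, METH as circles and saline as squares. The fast-spiking potassium channel list is at 0.65 and 0.71. The caudal ganglionic eminence list, which holds the gate gene Adarb2, is at -3.63 and -4.65. The oligodendrocyte list, of 3 measured genes, lies at -1.97 in METH and 0.52 in saline.

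Compared with their Mybpc1-positive counterparts, gated nuclei had close sums in the lists of fast-spiking potassium channels and Pvalb markers. Fast-spiking potassium channels summed to 7966 against 8330 CPM in METH and 8269 against 8284 CPM in saline. Pvalb markers outside the gate summed to 12889 against 13062 CPM in METH and 13345 against 13206 CPM in saline. Kcnc2 (4895 CPM) and Erbb4 (4020 CPM) made up much of the METH gated sum, and single members differed more. Slit2 was lower in gated nuclei, at 694 against 1134 CPM in METH and 830 against 1096 CPM in saline. Syt2 was lower too, at 44.4 against 96.1 CPM and 49.8 against 85.6 CPM. Of 12 measured members, 5 were above the counterparts in METH and 4 in saline. Of 4504 genes outside the gate, 8 were higher in gated nuclei (0.178%) and 17 were lower (0.377%) by the same rule. Depth was not matched here, with medians of 7285 against 7889 UMIs in METH and 5312 against 6049 in saline.

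Ranked in the same way, the 10 genes highest in gated nuclei were Sncaip, Kcnt2, Unc13b, Cacna1g, Scg2, Pdia6, Marchf4, Sorcs3, Lama4 and Man1a1, of which Sncaip and Unc13b were called. Sncaip, which encodes a synuclein-binding protein, had 93.7 against 15.7 CPM in METH and 101 against 17.1 CPM in saline. Unc13b, a vesicle priming factor, had 213 against 70.6 CPM in METH and 213 against 74.2 CPM in saline. The 10 lowest were all called: Sorcs1, Chn2, Plcxd3, Zfpm2, Mme, Fstl1, Khdrbs2, Pcdh7, Tmem132d and Ano3. Sorcs1, a sorting receptor, was at 37.2 against 180 CPM in METH and 60.8 against 263 CPM in saline. Khdrbs2, an RNA-binding splicing factor, was at 285 against 849 CPM in METH and 358 against 948 CPM in saline. Kainate and delta receptor genes were higher in gated nuclei by sum, at 4343 against 2795 CPM in METH and 4357 against 2512 CPM in saline, with 1 of 5 measured members called.

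Egflam, the gate gene that separated the Mybpc1 sets, was also used to split the gated nuclei. It was detected in 88 of 182 METH and 67 of 151 saline nuclei, whose depth was close to that of nuclei without it (medians of 7335.5 against 7284 UMIs in METH and 4952 against 5412.5 in saline). Of the 10 genes lower in gated nuclei than in Mybpc1-positive ones, 8 were lower in nuclei with Egflam than in nuclei without it in both libraries, and 0 were higher in both. The count is by sign, without intervals, for genes ranked in these same data. No share over all measured genes is given, so the count cannot show whether 8 of 10 is unusual. In saline, log2 ratios were as small as -0.04 for Sorcs1 and -0.21 for Mme, and Pcdh7 had 3 UMIs with Egflam and 33 without. A nucleus without Egflam had to pass on the other gate genes, and the part of this link was not tested. Tmem132d, a transmembrane gene, had 141 CPM with Egflam, 599 CPM without it and 910 CPM in Mybpc1-positive METH nuclei. In saline it had 93.8, 486 and 1102 CPM. For Tmem132d, nuclei without Egflam thus lay between the others. Plcxd3, of a phospholipase-like family, had 61.7, 198 and 451 CPM in METH and 65.1, 261 and 594 CPM in saline. The median log2 ratios, with over without Egflam, were -0.95 in METH and -0.83 in saline for these 10 genes. For the 10 genes higher in gated nuclei they were -0.18 and 0.10, with 3 genes above in both libraries and 4 below. Man1a1 and Sorcs3 were among the 4 below, and for both, nuclei without Egflam were above the Mybpc1-positive nuclei as well. Man1a1, a mannosidase of protein glycosylation, had 5.9 CPM with Egflam and 67.0 CPM without in METH, and 7.8 and 88.4 CPM in saline. Having no Mybpc1 UMI sets only a limit on the gene, since 15 of 63 METH and 8 of 28 saline counterparts held just 1 UMI of it.

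**Figure D3:**
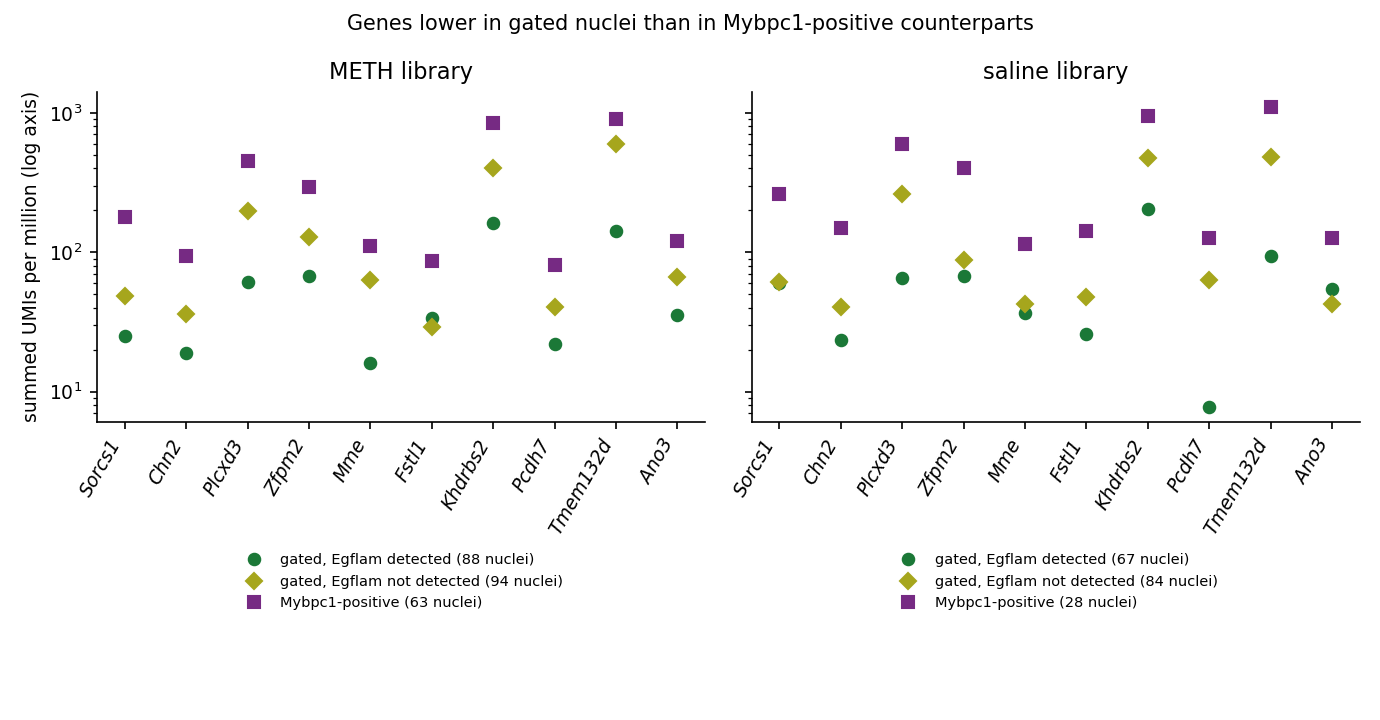
Levels (CPM, log axis) of the 10 genes lowest in gated nuclei against Mybpc1-positive counterparts, by library, in gated nuclei with Egflam, gated nuclei without Egflam and Mybpc1-positive nuclei. The genes were chosen to be highest in Mybpc1-positive nuclei; nuclei with Egflam are lowest except for Fstl1 in METH and Ano3 in saline.

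The share of gated nuclei was compared between METH and saline after every GABAergic nucleus was thinned to 3000 UMIs, which left out shallower nuclei (2 METH and 10 saline among the gated, 94 and 122 among the other GABAergic nuclei). After thinning, 960 METH and 703 saline nuclei met the GABAergic limits, and 109 of the 960 METH nuclei (11.4%, exact Clopper-Pearson interval 9.42 to 13.53%) and 102 of the 703 saline nuclei (14.5%, 11.99 to 17.33%) passed the gate. The log2 ratio was -0.35 (-0.76 to 0.05), so the difference was within counting error at this depth. Without thinning the shares were 15.3% and 16.7%, a log2 ratio of -0.12. At 2000 UMIs they were 5.98% and 9.48%, and the interval (-1.24 to -0.10) lay below 0. Over all nuclei of the libraries instead of GABAergic ones the order was the other way, 2.59% in METH and 2.01% in saline, for a log2 ratio of 0.37 (-0.04 to 0.77). METH also held 960 GABAergic nuclei among 4209 nuclei at this depth, against 703 among 5075 in saline.

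**Figure D4:**
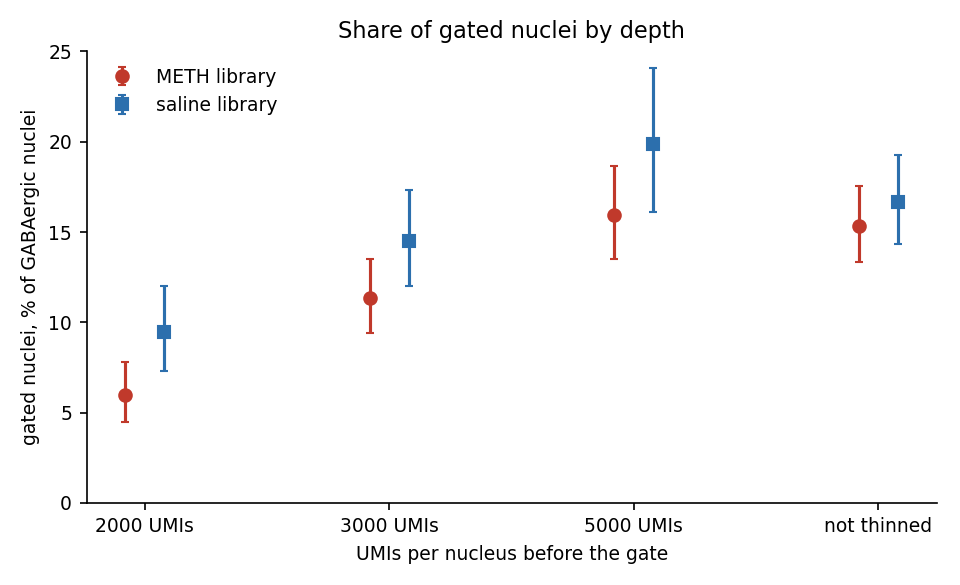
Gated nuclei as a percentage of GABAergic nuclei in METH (circles) and saline (squares), by the number of UMIs each nucleus was thinned to before the gate, with 95% Clopper-Pearson intervals. The METH share is below the saline share at each depth, 5.98% and 9.48% at 2000 UMIs and 15.3% and 16.7% with no thinning.

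Expression in METH gated nuclei was compared with saline gated nuclei after matching on total UMIs, with 112 nuclei on each side, medians of 6343.5 and 6159.5 UMIs and sums of 740318 and 735597 UMIs. Few genes differed. Of 5508 genes with at least 50 UMIs, 7 were higher in METH (0.127%) and 9 were lower (0.163%) by the same size rule, ratio and nearest bound past 1.5-fold. By the ratio alone, 251 were more than 1.5-fold higher (4.56%) and 159 more than 1.5-fold lower (2.89%). The median log2 ratio of all genes was 0.02. No gate marker was called. Pvalb had 48 UMIs in METH and 68 in saline, 64.8 and 92.4 CPM, a log2 ratio of -0.51 (-1.08 to 0.04). Egflam had 133 and 115 UMIs and Btbd11 467 and 466, and the 6 markers together had 1172 and 1139.

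The genes higher in METH included Thsd7b, Brinp3, Shroom3, Cacng3, Tmtc2 and Il12rb2. Of the 7 called higher, 5 were lower in gated than in other GABAergic nuclei in both libraries, and 2 were higher in both. Of the 9 called lower, 5 were lower in gated nuclei in both libraries and 1 was higher. Among 6206 measured genes, 2682 were below other GABAergic nuclei in METH and 2867 in saline. Thsd7b was at 93.2 and 15.0 CPM in METH and saline gated nuclei, against 756 and 646 CPM in other GABAergic nuclei. Shroom3, an actin-binding protein that shapes cells, had 75 UMIs in METH and 25 in saline, 101 and 34.0 CPM, a log2 ratio of 1.58 (0.91 to 2.29). In other GABAergic nuclei its log2 ratio was 0.14. Shroom3 was found in 37 METH and 18 saline nuclei, and no nucleus held over 12% of its UMIs. Cacng3, an AMPA receptor auxiliary subunit, had 91 UMIs in METH and 36 in saline, for a log2 ratio of 1.33 (0.76 to 1.93), against -0.06 in other GABAergic nuclei. Il12rb2, an interleukin-12 receptor subunit, had 192 UMIs in METH and 99 in saline, for a log2 ratio of 0.95 (0.59 to 1.31). Il12rb2 was higher in METH in other GABAergic nuclei as well, at 0.64 (0.46 to 0.83).

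For Brinp3 and Thsd7b a large part of the METH UMIs came from 1 nucleus, and for Tmtc2 a smaller part did. Brinp3, a neural gene inducible by retinoic acid, had 247 UMIs in METH and 75 in saline, for a log2 ratio of 1.71 (1.33 to 2.10). Thsd7b, a thrombospondin-domain gene, had 69 and 11 UMIs, a log2 ratio of 2.64 (1.71 to 3.71). Its 11 saline UMIs lay in 5 nuclei, and 1 nucleus held 54.5% of them. Tmtc2, an endoplasmic reticulum mannosyltransferase, had 238 and 105 UMIs (1.17, 0.83 to 1.52). A METH nucleus of 12973 UMIs held the most UMIs of each of these genes. Over all METH gated nuclei it held 115 of the 369 Brinp3 UMIs (31.2%). It held 37 of 81 of Thsd7b (45.7%) and 38 of 308 of Tmtc2 (12.3%) there. In the 112 matched METH nuclei its share was larger, at 46.56% for Brinp3, 53.62% for Thsd7b and 15.97% for Tmtc2. It carried Btbd11, Adamts15 and Plch1, no Sst UMI and no doublet call. It had 73 UMIs of Sst interneuron markers, or 5627 CPM, against medians of 634 CPM in METH gated nuclei and 3000 CPM in other METH GABAergic nuclei. By CPM it was not the highest, since the METH gated nuclei reached 8857 CPM, and 8 of them held at least 20 such UMIs. With this nucleus left out, the log2 ratios were 0.83 for Brinp3, 1.56 for Thsd7b and 0.95 for Tmtc2. Brinp3 and Thsd7b were then no longer called, whereas Tmtc2 still was.

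Sst interneuron markers as a list were higher in the depth-matched METH gated nuclei, for 5 of 5 measured members, with 732 UMIs in METH and 567 in saline and a median log2 ratio of 0.99. Synpr, a synaptic vesicle gene, had 80 UMIs in METH and 40 in saline, at a log2 ratio of 0.99, and Grin3a, an NMDA receptor subunit, 49 and 23 UMIs, at 1.08. Reln and Trhde were at 0.19 and 0.17. Of the 5 members 1 was called. The median was 0.62 without the METH nucleus described above and -0.22 with a gate of at least 4 markers. Over all gated nuclei, not matched on depth, 4 of 6 measured members were higher, the median was 0.33, and Calb1, a calcium-binding protein gene, was called lower, with 20 UMIs in METH and 39 in saline. The part of these markers in the called genes was not tested otherwise.

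The genes lower in METH included Gtsf1, Cacna2d1, Mbp, Dkk3, Slc1a3, Etv1, Rps23 and Il1rapl2. Gtsf1, known from the piRNA pathway of germ cells, had 11 UMIs in METH and 50 in saline, 14.9 and 68.0 CPM, a log2 ratio of -2.19 (-3.28 to -1.23). In other GABAergic nuclei Gtsf1 had 104 and 249 UMIs, a log2 ratio of -1.27 (-1.61 to -0.93), so that it was low in METH in both sets. Cacna2d1, an auxiliary calcium channel subunit, had 13 UMIs in METH and 47 in saline, for a log2 ratio of -1.86 (-2.87 to -0.95), against 0.27 (0.16 to 0.38) in other GABAergic nuclei. Etv1, an ETS-family transcription factor, had 15 and 43 UMIs (-1.53, -2.48 to -0.65), and Dkk3, a secreted protein of the Dickkopf family, 12 and 42 (-1.82, -2.88 to -0.86). Rps23, a ribosomal protein gene that the naming rule left out, had 17 and 46 UMIs (-1.45, -2.34 to -0.62).

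Il1rapl2 differed by a small ratio on many UMIs, 1017 in METH and 1654 in saline, or 1374 and 2249 CPM, a log2 ratio of -0.71 (-0.82 to -0.60). It was detected in 72 METH and 91 saline nuclei of the 112 on each side. In other GABAergic nuclei the log2 ratio was 0.18 (0.10 to 0.26). Over all gated nuclei, not matched on depth, it was -0.28 (-0.36 to -0.19), so its size rests on the matched nuclei. Its relative Il1rapl1 had 4602 and 5898 UMIs, a log2 ratio of -0.37 (-0.42 to -0.31), and was not called.

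Mbp, a myelin gene of oligodendrocytes, and Slc1a3, a glutamate transporter of astrocytes, are known as genes of glia. Mbp had 26 UMIs in METH and 92 in saline, for a log2 ratio of -1.83 (-2.52 to -1.19). Slc1a3 had 13 and 40 UMIs, a log2 ratio of -1.63 (-2.66 to -0.70). All 7 oligodendrocyte markers together had 62 UMIs in METH and 267 in saline, astrocyte markers 36 and 73, and microglia markers 10 and 28. The astrocyte sum did not keep its direction over all gated nuclei, where it was 145 UMIs in METH and 88 in saline, or 104 and 97.3 CPM. In the same unmatched nuclei, 4 saline nuclei with at least 16 oligodendrocyte UMIs each held 167 of 306 such UMIs (54.6%), and 1 of them was a doublet call. The most in any METH gated nucleus was 6. Without those 4 nuclei the log2 ratios were -0.23 for Mbp and -0.46 for Slc1a3. At 3000 UMIs, Mbp was detected in 11.7% of METH and 13.5% of saline gated nuclei, and in 23.6% and 20.9% of excitatory nuclei, which do not make myelin either. Both gated shares were thus below those of excitatory nuclei. The source of the Mbp UMIs was not tested.

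**Figure D5:**
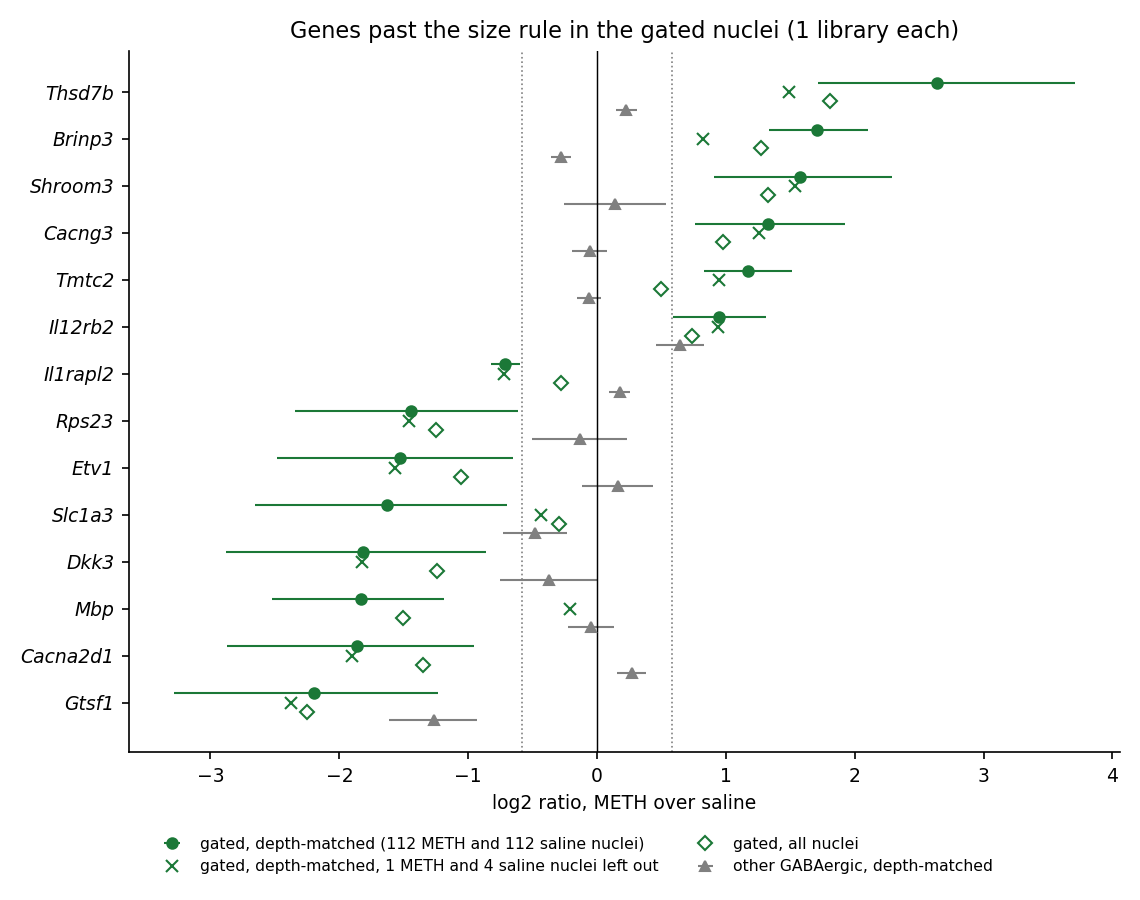
Log2 ratio of METH over saline for 14 of the 16 genes past the size rule. Filled circles are depth-matched gated nuclei with 95% counting intervals, crosses the same nuclei without 1 METH and 4 saline nuclei named in the text, diamonds all gated nuclei, and triangles depth-matched other GABAergic nuclei; dotted lines mark 1.5-fold. Mbp moves to near 0 and Brinp3 to under 1 without those nuclei, whereas Gtsf1, Cacna2d1 and Shroom3 keep log2 ratios past 1 in size.

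With the METH nucleus and the 4 saline nuclei both left out, 9 genes were called, 3 higher and 6 lower, and all 9 were among the 16. With all gated nuclei and no matching 19 were called, of which 8 were among the 16. Gtsf1, Shroom3, Cacna2d1 and Rps23 were called in both of these. No gene was called in every one of 19 alternative settings; Gtsf1 was called in 15, Shroom3 in 14 and Cacna2d1 in 13.

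Gene lists of Pvalb interneuron function differed little between METH and saline. Fast-spiking potassium channels had a median log2 ratio of -0.07 over 8 genes, and oxidative phosphorylation genes one of -0.01 over 29, beside 0.02 over all genes. None of either list was called. Sodium channels were lower in METH for 8 of 9 measured members (median -0.12), GABA receptors for 8 of 11 (-0.13) and endoplasmic reticulum chaperones for 9 of 10 (-0.10), with 0 called. Transcription factors of interneurons were lower for 11 of 13 members, with a median of -0.21, and Etv1 was the only member called. Of all 5508 measured genes, 2629 were lower in METH. Sox5 had 247 UMIs in METH and 336 in saline (-0.45, -0.70 to -0.21), and Mef2c 1000 and 1245 (-0.33, -0.45 to -0.20). Ppargc1a had 182 and 234 UMIs (-0.37, -0.66 to -0.09), within a list median of -0.29 over 4 genes. The matching medians in other GABAergic nuclei were -0.12 for sodium channels, -0.13 for GABA receptors, -0.32 for the chaperones, -0.12 for the transcription factors and -0.18 for the list of Ppargc1a.

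Mitochondrially encoded genes had a median log2 ratio of -0.04 over 8 members in gated nuclei and -0.49 over 11 members in other GABAergic nuclei. Cholesterol synthesis genes were higher in METH for 4 of 4 measured members, and 0 were called. Fdps, which makes farnesyl diphosphate, had 101 UMIs in METH and 78 in saline. Their median was 0.51, but 0.10 over all gated nuclei without matching. Genes of the list that earlier results of these data showed to shift alike across neurons were measured for 4 of 13 members here. Shroom3 was called higher and Gtsf1 lower, Wipf3 (68 and 69 UMIs) and Cst3 (68 and 91) were not, and the list summed to 312 UMIs in METH and 321 in saline.

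The METH over saline ratio of gated nuclei was also set against that of 656 METH and 656 saline other GABAergic nuclei, again matched on depth. The difference of the log2 ratios passed the size rule for 20 of 5506 genes (0.363%), 8 higher and 12 lower in gated nuclei, and 11 of the 20 had also passed it in the gated nuclei themselves. Brinp3 had the largest interval bound, with a difference of 1.99 (1.60 to 2.39). Pdzrn3, a ubiquitin ligase, had 439 UMIs in METH and 332 in saline gated nuclei (593 and 451 CPM), against 494 and 805 UMIs in other GABAergic nuclei, a difference of 1.11 (0.84 to 1.37). For Pbx3 and Ptpro the interval of the METH over saline ratio included 0 in gated nuclei and not in other GABAergic nuclei. Pbx3, a homeobox gene, had 33 and 34 UMIs in METH and saline gated nuclei, against 907 and 213 in other GABAergic nuclei. Its difference was -2.14 (-2.91 to -1.36). In the other GABAergic nuclei, 4 of 5 measured markers of a list holding Meis1 and Pbx3 were called higher in METH. The median log2 ratio of that list was 2.08. Leaving out nuclei with Meis1 and Pbx3 took the thinned GABAergic nuclei from 960 to 916 in METH and from 703 to 699 in saline. Pbx3 marks these nuclei, so leaving them out cannot test its own difference. Ptpro, a receptor tyrosine phosphatase, had 66 and 80 UMIs in gated nuclei, against 968 and 435, and a difference of -1.43 (-1.95 to -0.91). The Ptpro difference was -0.49 (-0.99 to 0.02) once nuclei with Meis1 and Pbx3 were left out of the other GABAergic nuclei.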

How the data were processed

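Nuclear RNA of 1 single-nucleus library per group (Chromium 3' v3.1 chemistry, per the labels' protocols) was analysed. The matrices were used as deposited, as raw UMI counts of genes by nucleus; the submitters' processing notes name Cell Ranger 7.0.0. They also name hg38, a human build, whereas the gene tables hold rat identifiers. The rat build used is not stated in the labels or headers, and symbols were read from the tables' 25399 genes.

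Values were computed with Python 3.11.15, numpy 2.4.6, scipy 1.17.1, pandas 2.3.3 and scanpy 1.11.5, with TMM factors from edgeR 4.0.16 and plots from matplotlib 3.10.9. Scrublet (expected rate 0.06) calls were removed only in an alternative; a nucleus with a Slc17a7 UMI, such as a doublet with an excitatory neuron, could not enter the gate. METH and saline nuclei were matched in bins of 0.25 log2 units of total UMIs, gated and other GABAergic nuclei likewise within each library. Genes with at least 50 UMIs over both sides were measured. Ratios are log2 of summed counts over summed totals, with exact conditional binomial 95% intervals, and their differences have exact conditional odds-ratio intervals; the code was checked on simulated counts. A sum of 0 was ranked at 3 counts.

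Named genes were the 10 highest and 10 lowest per comparison (5 for the difference), by the smaller of the libraries' ratios or the bound nearest to 0. Gate, mitochondrial, ribosomal protein and haemoglobin genes and placeholder names were left out of that ranking; called genes and members of described lists were added. The members and lists were chosen with earlier results of these data known. Excitatory nuclei, used for comparison, had at least 2 Slc17a7 UMIs. Alternatives were other depths, gates, filters, thresholds and scalings. Those that leave out the METH nucleus, the oligodendrocyte-rich nuclei, or nuclei with Meis1 and Pbx3 were chosen after seeing the data. Results for a few genes are not reported here; counts and list sums include them.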

Additional observations from a re-analysis of the deposited data

Results flagged for a closer look

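For 15 genes, METH and saline stood in opposite order in gated and in other GABAergic nuclei, and the interval of the difference passed 1.5-fold. The order rests on point values: the interval crossed 0 in gated nuclei for Pbx3 and Ptpro, and in other GABAergic nuclei for Cacng3, Tmtc2, Etv1 and Ipp. With 1 library per group the differences were not tested across animals; each is gated minus other GABAergic nuclei, in log2 units. Above 0 were Brinp3 (1.99), Cacng3 (1.39), Tmtc2 (1.24), Pdzrn3 (1.11) and Cacna2d3 (1.04). Brinp3 and Tmtc2 rest in part on the 1 METH nucleus described above. Cacna2d3, a calcium channel auxiliary subunit, had 125 UMIs in METH and 66 in saline gated nuclei, against 4696 and 5091 in other GABAergic nuclei. Its UMIs lay in 20 METH and 32 saline gated nuclei, and 1 nucleus held 24.8% of them in METH and 25.8% in saline.

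Below 0 were Pbx3 (-2.14), Cacna2d1 (-2.13), Etv1 (-1.69), Arpp21 (-1.44), Ptpro (-1.43), St6galnac3 (-1.42), Ipp (-1.42), Lgr5 (-1.14), Il1rapl2 (-0.89) and Chsy3 (-0.84). Chsy3, a chondroitin sulfate synthase, had 334 UMIs in METH and 482 in saline gated nuclei, against 2260 and 1819 in other GABAergic nuclei. Arpp21, a phosphoprotein gene regulated by cyclic AMP, had 25 and 52 UMIs in gated nuclei, against 1070 and 820. The Ptpro difference was within 1 log2 unit once nuclei with Meis1 and Pbx3 were left out of the other GABAergic nuclei.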

How the results depend on the processing

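No paired analysis was possible because each group has 1 library. The number of genes called between METH and saline, 16, was 5 at a 2-fold threshold, 9 with Adarb2 at 0 UMIs, 9 with at least 100 UMIs, 8 with at least 2 markers, 10 with at least 4 markers, 9 with both kinds of nuclei left out, 2 with the gate applied after thinning, 3 with thinning after the gate and 64 with no minimum of UMIs. Of the 16, only 2 were called with at least 2 markers and 1 with at least 4 markers, so the genes called there were mostly others. With either thinning 1 of the 16 was called, and some others fell under 50 UMIs. Gtsf1, thinned after the gate, had 8 UMIs in METH and 38 in saline, at a log2 ratio of -2.60. With Adarb2 at 0 UMIs, 7 of the 16 were called. The number with a difference between gated and other GABAergic nuclei, 20, was 5 at a 2-fold threshold, 8 with at least 4 markers, 2 with the gate applied after thinning, 6 with thinning after the gate and 71 with no minimum. Against other GABAergic nuclei, 299 calls became 169 at 2-fold, 465 with all nuclei unmatched and 161 with at least 4 markers. The share's log2 ratio of -0.35 became 0.37 over all nuclei. Cacng3 turned to -0.22 with the gate after thinning, and Tmtc2 to -0.60 with at least 4 markers, its difference to -0.50; the Thsd7b difference turned to -0.030 with at least 2 markers. The cause was not tested. Fewer UMIs or nuclei enter the thinned and stricter settings. The limits of 5% mitochondrial UMIs and 1000 genes kept the same 112 nuclei on each side, so their 16 calls were fixed in advance. With no minimum of UMIs the same 16 could not be lost either. The other 50 values of these counts and shares stayed within 1.5 times, or within the counting interval. Of named-gene and list values, 1002 stayed within their limits and 261 moved beyond them with no change of sign in a called value.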
